A study of Xenopus tropicalis with 9 samples.

Results

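Mature chondrocytes of the humerus were compared with osteoblasts of the lower jaw in the western clawed frog, Xenopus tropicalis. Its libraries were taken by the labelled cell type, 6 of the 9 in the series, 3 of each cell type. The mature chondrocyte libraries were titled 56M, 61M and 62M (replicates 1, 2 and 3) and the osteoblast libraries 57B, 60B and 61B-2 (replicates 1, 2 and 3). All animals were wild type, received no treatment besides feeding, had reached stage NF 57 and were 22 to 24 days old after fertilisation at 27 to 28 °C. The osteoblasts came from the medial angulosplenial, so cell type and body site changed together and cannot be told apart. The other 3 libraries, immature chondrocytes of the humerus from animals of the same genotype, stage and age, were left out of the main test. They are cited to place levels of the mature libraries and enter 1 alternative fit of all 9 libraries. Cells were isolated by laser capture microdissection, in which chosen cells are cut out of a tissue section, and RNA went through 1 round of linear amplification before sequencing. The labels do not tie a library to an animal, so the tests measure the spread between these libraries, which may be technical. The title number 61 occurs in 1 library of each group. The number 62 occurs in a mature and an immature library, and 60 in an osteoblast and an immature library. Whether a shared number marks 1 animal is not stated.

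Chondrocytes make the matrix of cartilage, which is rich in type II collagen and the proteoglycan aggrecan. As they mature in a long bone they enlarge, alter that matrix and, in many vertebrates, switch on type X collagen before bone replaces the cartilage. Osteoblasts secrete a matrix built mainly on type I collagen and mineralise it. The angulosplenial is a bone of the amphibian lower jaw that forms directly in membrane, without a cartilage template, whereas the humerus is preformed in cartilage. The deposited table lists genes by Ensembl identifier only, and the RefSeq table used here paired 0 of its 10336 identifiers with a symbol. The labelled cell types could therefore not be checked against their defining markers, nor could RNA of other cell types in the captured areas be looked for, and genes are described below by level and difference without names or roles.

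The deposited values are normalised read counts, given as whole numbers. The spacing of low values is that of counts multiplied by a factor for each library, but the scaling is not stated. Levels are given on the deposited scale unless a share of a library's total is stated. Totals per library were 7594328 to 14055110 in mature chondrocytes and 7885947 to 10886339 in osteoblasts. The reads behind them were estimated at 7160000 to 8850000 in mature chondrocytes and 7560000 to 13080000 in osteoblasts. Values across genes correlated at 0.81 to 0.90 among the mature libraries, at 0.73 to 0.77 among the osteoblast libraries and at 0.62 to 0.69 between the groups, on the log2 scale and as a description, since genes are not independent replicates. The lowest value within the mature group, 0.811, belonged to 56M and 61M. It was 0.845 for 56M and 62M and 0.901 for 61M and 62M. The median SD of a gene was 0.66 in mature chondrocytes and 0.98 in osteoblasts on the log2 scale, and the osteoblast SD was the larger for 67.1% of the tested genes. A median gene thus had a difference known to ± 1.74 on the log2 scale (unadjusted 95% interval), and smaller differences were mostly not detectable with these libraries.

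Mature chondrocytes and osteoblasts differed at 621 genes, and more of these were lower in mature chondrocytes. Of 8238 genes tested, 621 (7.54%) had an adjusted p under 0.05 (limma, Benjamini-Hochberg adjustment), with 192 (2.33%) higher and 429 (5.21%) lower in mature chondrocytes than in osteoblasts. Of these, 39 of the 192 higher and 196 of the 429 lower genes reached 1 ppm in every library of 1 group and none of the other. They passed the filter on low values only through that group, and they add to the excess of lower genes. Each library holds the pooled RNA of a captured area, so fewer cells of a type and less RNA per cell cannot be told apart. The higher genes had a median log2 difference of 3.28 and the lower genes one of -3.90, while the median of all tested genes was 0.10. A difference of at least 8-fold was found for 125 of the higher and 353 of the lower genes, and one of at least 32-fold for 27 and 93. The smallest called difference was 1.78 on the log2 scale in either direction. These differences are on the log2(value + 10.1) scale, where 10.1 is 1 ppm of the mean library total (the share times 1000000), and are understated for genes at low levels.

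**Figure D1:**
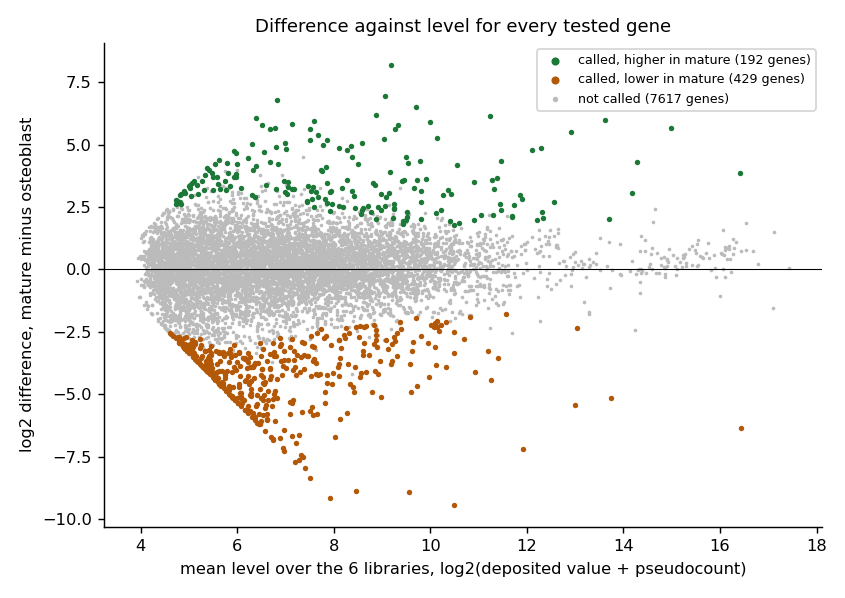
Log2 difference (mature chondrocytes minus osteoblasts, y axis) against the mean level over the 6 libraries (x axis, log2 of the deposited value plus the pseudocount) for each of the 8238 tested genes. Green points are the 192 genes called higher in mature chondrocytes, brown points the 429 called lower, and grey points the genes not called; the lower edge on the left is set by genes listed at or near 0 in the mature libraries.

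More genes had no overlap between the groups than were called. All 3 mature libraries lay above all 3 osteoblast libraries for 942 tested genes and below them for 1022, together 23.8% of the 8238. Of the genes called, 185 of the 192 higher and 425 of the 429 lower ones had no overlap between the groups. Another 1354 genes showed no overlap and were not called. The 23.8% includes 127 genes at 1 ppm or more throughout the mature group alone, and 311 throughout the osteoblast group alone. These passed the filter on low values through that group only and have no overlap by definition. If every order of the libraries were equally likely, 3 libraries a group would fail to overlap with a probability of 0.1. Genes are not independent replicates, so their share can lie above that probability without a difference between the cell types. The 23.8% was therefore not tested against it. With a library left out the probability is larger, and the share of tested genes without overlap was 29.8% to 36.8%. It was 36.8% without osteoblast library 57B and 36.6% without 61B-2.

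The genes called higher in mature chondrocytes lay at higher mean levels over the 6 libraries than those called lower. Tested genes were divided by that mean into 5 bins of equal size. The mean covers both groups, so a gene near 0 in 1 group falls into a lower bin. The lower genes had medians of 3, 2 and 5 in 56M, 61M and 62M, against 435, 316 and 495 in 57B, 60B and 61B-2. The higher genes had medians of 672, 1076 and 1144, against 35.0, 78.5 and 78.5. In the highest bin 4.79% were called higher and 3.64% called lower. Bin 2 from the bottom, with mean levels of 26.2 to 63.9, had 1.58% called higher and 8.20% called lower. The median SE of a log2 difference was 0.61 in the highest bin and 0.95 in bin 2, so the precision also varied with level. Both directions together made 8.43% in the highest bin, and 4.49% without 61M, 5.10% without 62M, 5.22% without 60B and 5.10% without 61B-2. Of the 500 most abundant genes of mature chondrocytes, 499 were tested, with 72 called higher and 3 lower. Of the 500 most abundant genes of osteoblasts, 499 were tested, with 10 called higher and 79 lower. Over all tested genes 2.33% were called higher and 5.21% lower. The lists of 500 genes were picked by the level in 1 of the groups compared, which favours that direction.

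Called genes made up a sizeable part of the deposited counts of each cell type. These are shares of normalised counts and not of transcript molecules. The 192 higher genes took 14.8%, 14.8% and 11.4% of the deposited total in 56M, 61M and 62M, against 1.16%, 1.27% and 0.894% in 57B, 60B and 61B-2. The 429 lower genes took 0.404%, 0.539% and 0.525% in 56M, 61M and 62M, against 16.5%, 18.7% and 16.2% in 57B, 60B and 61B-2. The libraries of each group were thus close to one another in these shares, 56M included. The fit that chose the genes held all 6 libraries and favours a small spread within groups, so this closeness is not a test. The genes were also chosen by the difference between the groups, so the shares describe its size and do not test it. Single genes weighed heavily in the shares. The leading gene of osteoblasts, among the 429, took 7.37%, 12.3% and 7.77% of 57B, 60B and 61B-2. The leading gene of mature chondrocytes, among the 192, took 3.71%, 3.43% and 2.39% of 56M, 61M and 62M.

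**Figure D2:**
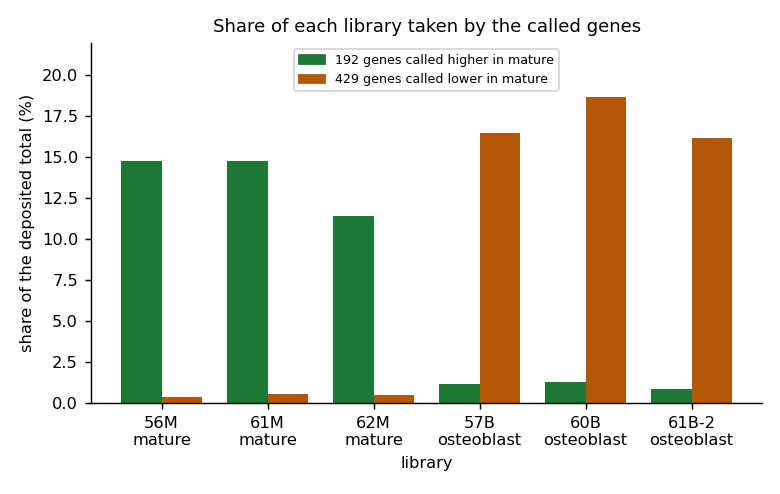
Share of each library's deposited total (y axis, percent) taken by the 192 genes called higher in mature chondrocytes (green bars) and the 429 called lower (brown bars), for the 3 mature chondrocyte and 3 osteoblast libraries (x axis). The green bars reach 11.4% to 14.8% in the mature libraries and 0.894% to 1.27% in the osteoblast libraries, and the brown bars 0.404% to 0.539% and 16.2% to 18.7%. The leading gene of osteoblasts makes 7.37% to 12.3% of the total within the brown bars of the osteoblast libraries.

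Among the genes with the largest shares of the counts, 4 of the 10 leading ones were common to both cell types. The leading gene of mature chondrocytes took 3.71%, 3.43% and 2.39% of 56M, 61M and 62M, against 0.255%, 0.368% and 0.168% of 57B, 60B and 61B-2. Its log2 difference was 3.87 (SE 0.72, limma adjusted p = 0.00313), with no overlap between the groups. The gene of rank 3 in mature chondrocytes took 2.29%, 2.44% and 1.79% of the mature libraries, against 0.0696%, 0.0586% and 0.0303% of the osteoblast libraries. It differed by 5.66 on the log2 scale (SE 0.62, limma adjusted p = 5.96e-05), and 56M again lay with 61M and 62M. These were the only genes of the leading 10 of mature chondrocytes that were called. The gene of rank 2 there took 2.04%, 3.57% and 1.59% of the mature libraries and 0.838%, 0.699% and 1.37% of the osteoblast libraries, a log2 difference of 1.51 (SE 0.81) that did not pass the test (limma adjusted p = 0.348), although the groups did not overlap.

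The leading gene of osteoblasts took 0.0205%, 0.189% and 0.197% of 56M, 61M and 62M, against 7.37%, 12.3% and 7.77% of 57B, 60B and 61B-2. Its log2 difference was -6.37 (SE 0.97, limma adjusted p = 0.000749). Every mature library lay far below every osteoblast library, and 56M lay well below 61M and 62M, within the 0.0163% to 0.0342% of the immature libraries. The osteoblast gene of rank 8, the other called one of the leading 10, had the same order, with 0.00512%, 0.0415% and 0.0448% of 56M, 61M and 62M, against 0.782%, 0.833% and 1.1% of 57B, 60B and 61B-2. It differed by -5.16 on the log2 scale (SE 0.84, limma adjusted p = 0.00122). The osteoblast gene of rank 2 was uneven within its own group, at 0.667%, 0.660% and 1.05% of the mature libraries and 4.06%, 5.64% and 0.779% of 57B, 60B and 61B-2. With 61B-2 inside the mature range, its log2 difference of -1.53 (SE 0.88) did not pass the test (limma adjusted p = 0.390).

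The share of a library in its leading genes overlapped between the groups. The 10 most abundant genes of each library took 17.6% ± 2.34 in mature chondrocytes and 22.4% ± 3.59 in osteoblasts (SD, n = 3 each; exact two-sided permutation test, p = 0.2). The 100 most abundant took 55.1%, 68.0% and 71.4% of 56M, 61M and 62M, against 54.8%, 63.7% and 64.5% of 57B, 60B and 61B-2 (exact two-sided permutation test, n = 3 each, p = 0.5). With 3 libraries a group the smallest p this test can give is 0.1, so it could not have passed 0.05. With the leading osteoblast gene taken out of the totals, the difference for the 10 leading genes was 2.02 percentage points (mature minus osteoblast), against -4.81 with it. By the 100 leading genes 56M and 57B were the least concentrated of their groups.

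The 2 called genes with the largest rise, among those without overlap and with the lower group at 1 ppm or more, were ENSXETG00000021417 and ENSXETG00000017926. ENSXETG00000021417 had 521, 32877 and 57265 normalised counts in 56M, 61M and 62M, against 3, 47 and 42 in 57B, 60B and 61B-2. All mature libraries lay above all osteoblast libraries, but 56M stood far below the other mature libraries, which held at least 63.1 times as much. The immature libraries held 123 to 814, a range that included 56M. The log2 difference was 8.20 (SE 1.24, limma adjusted p = 0.000718), and it was 10.32 without 56M (limma adjusted p = 1.96e-06; range over all alternatives 1.96e-06 to 0.0276). ENSXETG00000017926 had 7492, 9376 and 2937 normalised counts in 56M, 61M and 62M, against 4, 97 and 65 in 57B, 60B and 61B-2. Here 56M lay between 61M and 62M, and the immature libraries were alike at 4592 to 10380. Its log2 difference was 6.93 (SE 0.75, limma adjusted p = 5.37e-05).

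The 2 called genes with the largest fall by the same rule were ENSXETG00000020417 and ENSXETG00000025052. ENSXETG00000020417 had 10, 210 and 27 normalised counts in 56M, 61M and 62M, against 81593, 18645 and 35490 in 57B, 60B and 61B-2. The lowest osteoblast library lay far above the highest mature library, which was 61M. The log2 difference was -9.43 (SE 0.78, limma adjusted p = 3.38e-06). ENSXETG00000025052 had 42, 13 and 24 normalised counts in 56M, 61M and 62M, against 12147, 11632 and 32472 in 57B, 60B and 61B-2. The groups differed by -8.91 on the log2 scale (SE 0.60, limma adjusted p = 6.49e-07). For this gene 56M was the highest of the mature libraries, and the immature libraries were higher still at 64 to 117. Each of the 4 genes remained called in the same direction under all 18 alternatives. Their choice as the largest differences and the libraries in common make this likely.

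**Figure D3:**
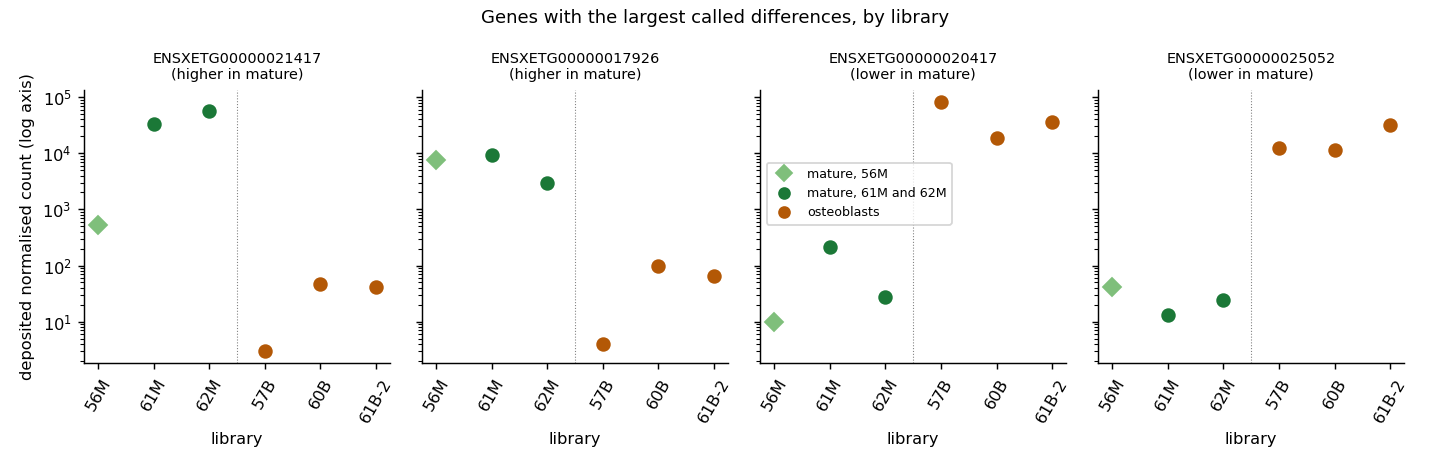
Deposited normalised count (y axis, log scale) of the 4 genes with the largest called differences in each of the 6 libraries (x axis); diamonds are 56M, dark circles 61M and 62M, brown circles osteoblasts. The mature and osteoblast libraries do not overlap for any of the 4, and 56M, at 521, is set apart from 32877 and 57265 for ENSXETG00000021417.

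Genes present in 1 cell type and under the detection level in the other were more numerous on the osteoblast side. A level of 1 ppm of the mean total or more was found in every mature and no osteoblast library for 127 of the 10336 genes in the table (1.23%), and in every osteoblast and no mature library for 311 (3.01%). The mature-only genes had low levels, with a median over genes of 48.0 for the mature mean and 3 genes at 100 ppm or more. The osteoblast-only genes had a median of 119.7 for the osteoblast mean and 19 genes at 100 ppm or more, up to 8858. Of the mature-only genes 25 were listed at 0 in all 3 osteoblast libraries, and of the osteoblast-only genes 119 were listed at 0 in all 3 mature libraries. The limma test called 39 of the 127 and 196 of the 311, which passed the filter on low values only through the group in which they were present, so these shares support nothing. The number of genes listed at 0 was 958, 2014 and 1430 in 56M, 61M and 62M, against 2231, 1007 and 1132 in 57B, 60B and 61B-2 (exact two-sided permutation test, n = 3 each, p = 1). The estimated reads of these libraries were 8090000, 7160000 and 8850000 in 56M, 61M and 62M, against 7910000, 7560000 and 13080000 in 57B, 60B and 61B-2, and the part of depth in these counts was not tested.

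The mature-only count rose by unlike amounts with single libraries left out. It was 253 without 56M, 207 without 61M and 193 without 62M, against 127 with all 6. Without 57B, 60B and 61B-2 it was 160, 277 and 251. A library left out removes 1 condition, so the count could not fall. Of the 253 genes present in both 61M and 62M and in no osteoblast library, 126 (49.8%) were under that level of 1 ppm in 56M. These are the genes by which the count rose without 56M. The corresponding shares were 38.6% for 61M, with 56M and 62M as the other libraries, and 34.2% for 62M. With the level set at 1 ppm of each library's own total they were 40.7% for 56M, 40.1% for 61M and 47.7% for 62M. The osteoblast-only count, which likewise could not fall, was 554 without 57B, the library with the most genes listed at 0. It was 362 to 418 with any other library left out, against 311 with all 6.

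How far 56M stood from the other mature libraries depended on the scale. Its deposited total, 7594328, was below the 11414708 of 61M and the 14055110 of 62M, so the positions were also taken per own total, in ppm, an alternative added after the data were seen. Among the 192 higher genes as deposited, 56M was the lowest mature library for 97, 61M for 46 and 62M for 49. Per own total the counts were 60, 37 and 95, with 62M the lowest most often. The higher genes were called in a fit that held 56M, so genes at which 56M lay with the osteoblasts had less chance to be among them. Large gaps at single genes were present on both scales. As deposited, 61M and 62M were both at least 4-fold above 56M for 31 of the 192 genes and 56M was at least 4-fold above both for 6, and per own total the counts were 25 and 17. For ENSXETG00000021417 the lower of 61M and 62M was 42.0 times 56M per own total. The 79 lower genes among the 500 most abundant of osteoblasts had a median of 9.61, 18.3 and 13.8 ppm in 56M, 61M and 62M, against 370.8, 253.3 and 254.7 ppm in 57B, 60B and 61B-2. The median was 7.89 to 11.8 ppm in the immature libraries, a range that held 56M. The 192 higher genes had a median of 88.5, 94.3 and 81.4 ppm in 56M, 61M and 62M. Their median was 55.9 to 70.8 ppm in the immature libraries, a range below 56M. The fit that chose the 192 held 56M and not the immature libraries, which favours that order. As deposited, 61M and 62M were both at least 4-fold above 56M for 16 of the 79 lower genes and the reverse held for 4. Per own total the counts were 11 and 4. Over all 429 lower genes the counts were 41 and 36 as deposited, and 26 and 43 per own total. Most of the 429 were near 0 in these libraries, with deposited medians of 3, 2 and 5 in 56M, 61M and 62M.

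**Figure D4:**
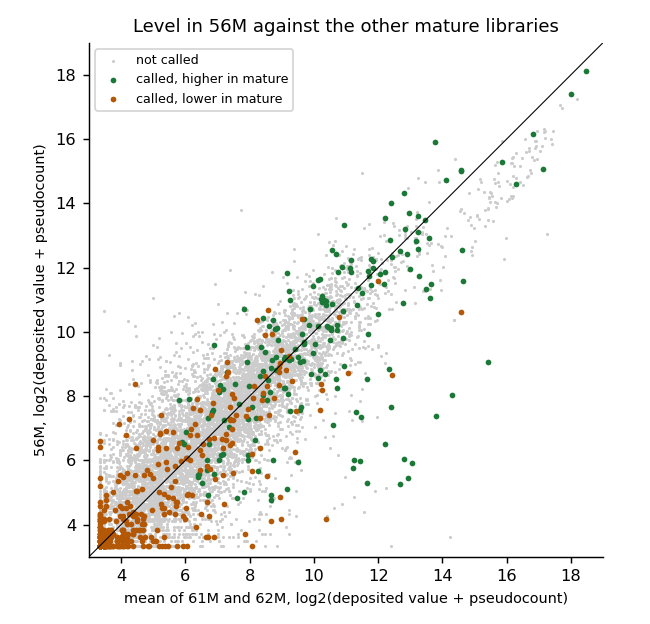
Level of each tested gene in 56M (y axis) against the mean of 61M and 62M (x axis), both as log2 of the deposited value plus the pseudocount; the line marks equal levels on the deposited scale, on which 56M has the lowest total. Green points are genes called higher and brown points genes called lower in mature chondrocytes than in osteoblasts; the green points far below the line include ENSXETG00000021417, with 521 in 56M.

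The share of genes at which 1 mature library fell short of the other mature libraries also changed with the scale. As deposited, 61M and 62M lay above every osteoblast library for 1374 tested genes, and 56M did not for 432 of them (31.4%). Set against the other mature libraries in the same way, that share was 25.8% for 61M and 24.2% for 62M. Per own total it was 20.2% for 56M, 22.8% for 61M and 42.5% for 62M. For lying below every osteoblast library the shares were 22.9%, 14.0% and 19.5% for 56M, 61M and 62M as deposited, and 38.7%, 11.7% and 9.28% per own total. Library 56M had the largest share in both directions as deposited and for lying below every osteoblast library per own total. For lying above them per own total it had the smallest. No mature library stood apart in both directions on both scales, and these shares, which use the same osteoblast libraries, were not tested. Among osteoblasts as deposited, the share of genes at which a library failed to lie above all mature libraries when the others did was 36.6% for 57B, 25.3% for 60B and 26.3% for 61B-2. For lying below all mature libraries it was 33.5% for 57B, 34.5% for 60B and 42.2% for 61B-2.

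Calls fell in number with every library left out, which a smaller fit makes likely. The fit without 56M kept 384 of the 621 genes, against 280 without 61M and 295 without 62M. Without 56M 432 genes were called (5.24%), 154 higher and 278 lower. The fits without 61M and 62M called 280 (3.4%, with 68 higher and 212 lower) and 302 (3.67%, with 71 higher and 231 lower). Without 57B, 60B and 61B-2 the numbers were 553 (6.71%, with 159 higher and 394 lower), 382 (4.64%, with 93 higher and 289 lower) and 358 (4.35%, with 101 higher and 257 lower). Genes called and at least 8-fold apart numbered 478 with all libraries, 275 without 61M and 285 without 62M. Of the 432 genes called without 56M, 384 were among the 621 and 48 were not. In those 48, 37 were higher in mature chondrocytes, with a median level of 44.0 in 56M, 1564 in 61M and 1291 in 62M, against 13, 71 and 66 in 57B, 60B and 61B-2. For 23 of the 37, 56M lay within the range of the osteoblast libraries. The 48 genes passed only once 56M was left out, so a 56M unlike 61M and 62M was part of how they were found. Newly called genes numbered 0 without 61M and 7 without 62M. They numbered 78, 26 and 22 without 57B, 60B and 61B-2. Of the 621, the 237 not called without 56M were 75 higher and 162 lower genes. Under the 18 alternatives the genes shared with the 621 had the same sign throughout, which the libraries in common make likely.

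**Figure D5:**
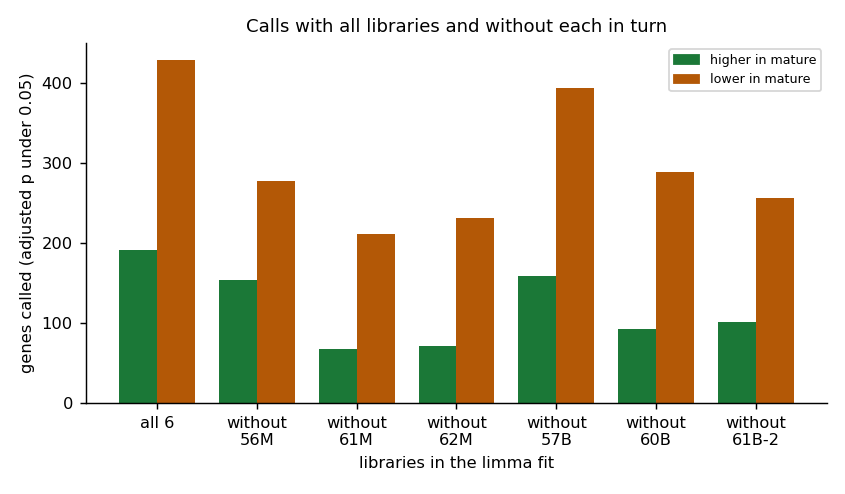
Number of genes called (y axis, limma adjusted p under 0.05) higher (green) and lower (brown) in mature chondrocytes than in osteoblasts, with all 6 libraries and without each library in turn (x axis). The pair of bars runs from 192 and 429 with all libraries to 68 and 212 without 61M; without 56M it is 154 and 278.

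The count also depended on what else was in the fit. A single fit of all 9 libraries in 3 groups, in which the immature libraries add to the estimate of the spread, called 1067 genes between mature chondrocytes and osteoblasts, 408 higher and 659 lower, and 620 of the 621 were among them. Some immature libraries share a title number with a mature or an osteoblast library, so the 9 may not be independent. At an adjusted p under 0.01, 269 genes remained, 67 higher and 202 lower. The unadjusted p was under 0.05 for 1562 of the 8238 genes.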

How the data were processed

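RNA from 9 laser-captured libraries was analysed, of which 6 entered the comparison, grouped by the labelled cell type. The authors used edgeR, STAR 2.5.3a and Trimmomatic 0.36, per the submitters' processing notes. Genome build, annotation, counter, filter and scaling are not given in the sources used here. Values deposited by the authors are treated as a score, namely normalised counts rounded to whole numbers, since low values skip or repeat at regular intervals. The spacing gave the value of 1 read, 0.832 in 61B-2 to 1.59 in 61M. Where it is under 1, different read counts share a value, so reads could not be recovered exactly and count models were left out. It is least certain in 57B, where it is close to 1. No gene in the table has a highest value under 12. Amplification of small RNA amounts adds spread to rare transcripts.

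Values were analysed as log2(value + 10.1), 10.1 being 1 ppm of the mean total of the 6 libraries. Genes at that value in at least 3 of the 6 were tested in limma 3.58.1 (R 4.3.3) with a variance trend and 1 spread for both groups, and p-values were adjusted over all tested genes by the Benjamini-Hochberg method. The fit was also run on simulated data, with 1 spread per group for all genes and genes drawn independently. That setting differs from these libraries, so it does not give their error rate. Named genes are the 2 largest log2 differences in each direction among called genes without overlap whose lower group averages 1 ppm or more. Genes given by rank were ordered by their mean share of a group's libraries. The comparison, gene lists and rules were chosen with earlier results of these data known. The lists could not be used without gene names. The intervals of single differences cover the spread between libraries. Alternatives covered the pseudocount, filter, scaling, variance model, library weights, libraries in the fit, threshold and each library left out. Python 3.11.15 with numpy 2.4.6, pandas 2.3.3 and matplotlib 3.10.9 was used.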

Additional observations from a re-analysis of the deposited data

How the results depend on the processing

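With all 9 libraries in 1 fit, 1067 genes were called (408 higher, 659 lower), against 621 (192 higher, 429 lower) in the fit of 6, and at an adjusted p under 0.01 there were 269 (67 higher, 202 lower), where the stricter threshold itself lowers the count. Leaving out 1 library gave 280 to 553 calls, 68 to 159 higher and 212 to 394 lower. Genes at least 8-fold apart numbered 478, with 239 at a pseudocount of 4 ppm, which shrinks differences at low levels, 257 at an adjusted p under 0.01, and 275 to 433 with a library left out. The share called in the highest of 5 bins of level was 8.43%, with 13.7% from all 9 libraries, 4.92% without a variance trend (the cause was not tested), 4.25% at an adjusted p under 0.01, and 4.49% to 7.58% with a library left out. With a library left out, 29.8% to 36.8% of tested genes had groups that did not overlap, 160 to 277 genes were present in mature libraries only and 362 to 554 in osteoblast libraries only, where fewer libraries need to meet each condition. The mean share of the 10 leading genes differed by -4.81 percentage points (mature minus osteoblast) and by 2.02 points once the leading osteoblast gene was left out of the total (exact two-sided permutation test, n = 3 each, p = 0.4), with a range of -6.20 to -2.77 with a library left out. The mean number of genes listed at 0 differed by 10.7 (mature minus osteoblast) and by -262.7 to 397.8 with a library left out, so it had no stable sign. Other filters, pseudocounts, scalings, variance models and library weights gave 518 to 709 calls. Scaling every library to 1 total placed the median of all log2 differences at -0.08, against 0.10 as deposited, with 132 genes higher and 425 lower. Among genes called higher, 56M was the lowest mature library for 97 as deposited and for 60 per own total, which raises 56M relative to 61M and 62M. No paired analysis was possible because the groups share only 1 number in their titles, and whether it marks 1 animal is not stated. Depth, at an estimated 7160000 to 13080000 reads, limits what can be said of genes near 1 ppm.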
